A study of Mus musculus with 6 samples.

Results

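The contractile genes of myofibroblasts and smooth muscle, together with 2 genes of fibroblast activation, were followed in infarcted mouse myocardium. The 10 genes, taken by symbol from a given list, are the actin genes Acta2 and Actg2, the myosin genes Myl9 and Myh11, Tpm2, Cnn1, Cnn2, Tagln, Fap and Meox1. All 10 were among the 16199 gene symbols of the deposited table. The 6 libraries were made from heart muscle taken 7 days after the left anterior descending branch of the coronary artery was tied off, 3 of them wild type and 3 labelled ITIH5 knockdown. All 6 had the ligation, and no library came from an uninjured heart. The question behind the comparison was whether ITIH5, a secreted protein that binds hyaluronan in the matrix, acts on scarring through the immune response. The sources used here do not say how the knockdown was made, in which cells it acts, or what the strain, age and sex of the mice were. They also do not say whether each library is a different animal, so the p-values cover library-to-library spread, part of which may be technical.

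After an infarct, resident fibroblasts become myofibroblasts, which take on part of the contractile apparatus of smooth muscle and pull the young scar together. Their actin filaments are moved by myosin and are held in place by tropomyosin, calponin and transgelin. Many of these genes are switched on by serum response factor (SRF) with its myocardin-related coactivators, downstream of TGF-beta and of tension. The same genes are expressed by the smooth muscle cells of coronary arteries. In RNA from whole tissue, fewer cells of a type and less RNA per cell cannot be told apart.

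Values are on a scale close to TPM, a share of the reads corrected for gene length, with a further adjustment between libraries that no source used here describes. The 6 columns sum to between 901563 and 1159657, and small values come in steps of 0.895 to 1.164, depending on the library. Sequencing depth is unknown. Itih5 itself was at 9.73, 13.1 and 17.2 (wild type) against 18.4, 10.5 and 19.96 (labelled knockdown). The exact two-sided permutation p was 0.5, where 0.1 is the smallest p for 3 against 3. Its transcript was thus not lower under the knockdown label, and every direction below refers to the labels. Replicate 1 of the labelled knockdown group stood apart. Its 15 cardiomyocyte marker genes, such as Myh6, Myl2 and Ttn, summed to 26845, against 6980 to 7671 in wild type and 7053 to 10964 in the other 2 libraries of its group. None of the 15 was at 0 in any library. Labelled knockdown replicate 1 also differed in its small values. It held 1078 values above 0 but close to it, far below its rounding step, and every other library held none. It had 212 genes at 0, against 731 to 1082 elsewhere. Its total (1159657) and step (1.164) were the highest, and those of wild-type replicate 3 (901563 and 0.895) the lowest. The part of these small values in the differences below was not tested.

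Of the 10 genes, 8 had a lower mean in the libraries labelled knockdown and 2, Meox1 and Myh11, a higher one. No gene passed the test, the moderated test of limma on log2(value + 1) with Benjamini-Hochberg adjustment at 0.05. Over all 14025 genes tested the percentage called was 0. At an unadjusted p under 0.05 there were 2 lower members, Actg2 and Tagln, where 6.55% of all genes were lower, and 1 higher, Meox1, where 8.29% were higher. The median log2 difference of the 10 was -0.31, beside 0.005 over all genes tested, of which 49.2% had a lower mean. The groups did not overlap for 4 lower members (Acta2, Actg2, Myl9 and Fap), against 9.88% of all genes, and for 1 higher member (Meox1), against 12.6%. All 8 genes with a lower mean had their lowest value in replicate 1 of the labelled knockdown group and their highest in wild-type replicate 3. The 8 patterns share those 2 libraries and are not separate observations. Rescaling every library to 1 common total moved the median of all genes to -0.13 and that of the 10 members to -0.45, with 9 of 10 lower. The plot of values by library shows both features.

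**Figure D1:**
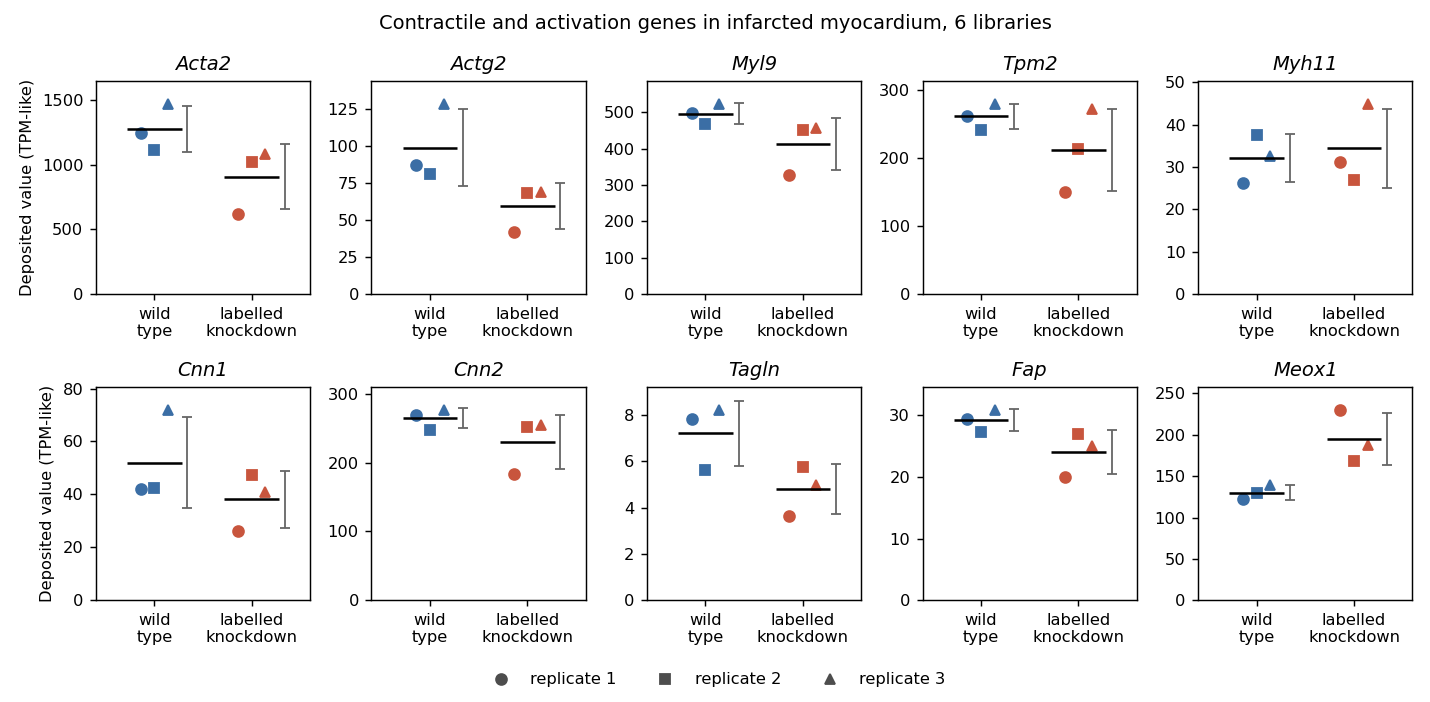
Deposited value (TPM-like) of each gene in the 3 wild-type and 3 labelled knockdown libraries, with axes that start at 0; marker shapes are replicate numbers, black lines are group means and grey bars are ± 1 SD (n = 3). The circle of the labelled knockdown group (replicate 1) is lowest for 8 of the 10 genes and highest for Meox1, whose groups do not overlap.

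Acta2 encodes smooth muscle alpha actin, the filament protein by which myofibroblasts are usually recognised. It read 1247, 1117 and 1471 with wild type and 620.0, 1023 and 1079.8 with labelled knockdown. All 3 of the latter lay below the lowest wild-type value, with replicates 2 and 3 close under it and replicate 1 far below. The means were 1278 ± 179 and 908 ± 251 (SD, n = 3), a log2 difference of -0.53 (SE 0.24, 95% interval -1.09 to 0.04, limma adjusted p = 0.351). Leaving out replicate 1 of the labelled knockdown group gave -0.27, and adding the mean level of the cardiomyocyte markers as a covariate gave -0.21. Acta2 is protein coding and lies on the minus strand of chromosome 19, from 34241090 to 34255590 in mm10.

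Actg2, the gamma actin of smooth muscle, had the lowest log2 difference of the 10 genes. Wild-type libraries were at 87.0, 80.8 and 128, and the libraries labelled knockdown at 41.7, 68.3 and 68.9. The groups did not overlap, and replicates 2 and 3 of the labelled knockdown group were nearly equal. The log2 difference was -0.72 (SE 0.25, 95% interval -1.30 to -0.14, limma adjusted p = 0.301), and it was -0.49 without replicate 1 of that group. Actg2 lies on chromosome 6 (83512905 to 83536265, minus strand). Actins are near-identical proteins, and the longest open reading frames of Acta2 and Actg2 share 84.2% of their bases. Their longest identical run is 29 bases, as is that between Acta2 and the skeletal actin gene Acta1 (85.4% of bases). With the cytoplasmic actin gene Actb, which was at 2728 to 3897, Acta2 shares 82.8% of bases and a longer run of 47. No source used here tells how reads that match several actin genes were counted, so the split between them is uncertain. Acta1 and the cardiac actin gene Actc1, which like Actb were looked up for their likeness to Acta2 with their values known, ran the other way in replicate 1 of the labelled knockdown group. Acta1 was at 1770.1 there against 150.0 to 439 in the other 5 libraries. Actc1 was at 5237 there, against 1935 to 4150 elsewhere.

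The 250 bases before the RefSeq start site of 3 members are printed because they hold a CArG box, the element that SRF binds, or a stretch 1 letter away from it. The box has CC and GG around a centre of 6 bases that are A or T. RefSeq promoter windows on GRCm38.p6 (the mm10 assembly), of 300 bases from 250 before to 50 after the start, matched 5 of the 10 members (Acta2, Cnn1, Cnn2, Myl9 and Tpm2). The element reads as the same form on both strands, so 1 search covers both. In GENCODE, Acta2, Cnn2 and Myl9 start inside the printed bases, at 34255590, 79988584 and 156775420. Distances given below therefore hold for the RefSeq starts only. Exact matches (in Cnn2 and Myl9) and stretches with 1 C or G in the centre (in Acta2 and Myl9) are in capitals, 5′ to 3′ on the gene's strand.
Acta2 (chr19:34255374-34255623, minus strand): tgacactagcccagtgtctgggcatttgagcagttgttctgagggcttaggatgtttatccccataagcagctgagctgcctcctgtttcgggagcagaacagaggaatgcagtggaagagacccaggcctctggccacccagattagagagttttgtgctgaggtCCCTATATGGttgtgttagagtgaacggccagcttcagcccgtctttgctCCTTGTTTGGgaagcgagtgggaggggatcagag
Cnn2 (chr10:79988350-79988599, plus strand): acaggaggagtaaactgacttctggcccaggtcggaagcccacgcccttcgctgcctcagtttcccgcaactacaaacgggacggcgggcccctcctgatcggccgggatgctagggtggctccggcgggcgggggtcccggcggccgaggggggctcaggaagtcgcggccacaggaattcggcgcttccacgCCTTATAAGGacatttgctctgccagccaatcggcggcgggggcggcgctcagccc
Myl9 (chr2:156775214-156775463, plus strand): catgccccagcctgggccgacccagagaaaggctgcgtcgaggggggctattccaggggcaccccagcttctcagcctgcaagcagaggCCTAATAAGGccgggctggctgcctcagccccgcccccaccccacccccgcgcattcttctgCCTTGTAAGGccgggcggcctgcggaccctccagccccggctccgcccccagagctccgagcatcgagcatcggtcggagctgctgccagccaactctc

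Acta2 held no exact match and 2 near matches, CCCTATATGG starting 84 bases before the start and CCTTGTTTGG starting 34 bases before it, each with 1 departure in the centre. Cnn2 held CCTTATAAGG, an exact match 56 bases before the start. Myl9 held the exact match CCTAATAAGG at 161 bases and CCTTGTAAGG, with 1 departure, at 99 bases. The windows of Cnn1 and Tpm2 held neither form. Among 32851 windows of the same length, 1.63% held an exact match and 9.98% a match with at most 1 departure. Of 21 other smooth muscle contractile genes with a window, 2 held an exact match and 2 a match with at most 1 departure. Members with an exact or near match (log2 differences -0.53, -0.21 and -0.28 for Acta2, Cnn2 and Myl9) and those without (-0.43 for Cnn1 and -0.34 for Tpm2) covered overlapping ranges. These matches are letters in a window, and binding was not measured here.

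Myl9 encodes the regulatory light chain whose phosphorylation starts smooth muscle contraction. It measured 499, 469 and 524 (wild type), compared with 329, 452 and 457 for labelled knockdown. The groups were separate, but replicates 2 and 3 of the labelled knockdown group lay just under the wild-type range. The log2 difference was -0.28 (SE 0.15, limma adjusted p = 0.397), or -0.13 with replicate 1 of that group left out. Myl9 lies on chromosome 2 (156775420 to 156781658, plus strand). Its longest open reading frame shares 85.4% of its bases with that of Myl12b, with a longest identical run of 35 bases.

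Myh11, the smooth muscle myosin heavy chain and the most restricted marker of mature smooth muscle among the 10, did not follow the other contractile genes. Wild type gave 26.3, 37.5 and 32.5 and labelled knockdown 31.3, 26.9 and 44.9. The groups overlapped, and replicate 1 of the labelled knockdown group was in the middle of the range instead of at its lower end. The log2 difference was 0.08 (SE 0.21, 95% interval -0.41 to 0.57, limma adjusted p = 0.865). It turned to -0.06 when each library was rescaled to the same total, and to -0.06 or -0.13 with wild-type replicate 1 or labelled knockdown replicate 3 left out, so its direction is not settled. Myh11 lies on chromosome 16 (14194535 to 14291372, minus strand).

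Tpm2 encodes beta tropomyosin, which lies along actin filaments. It was at 263, 242 and 280.3 (wild type) against 151, 214 and 272 (labelled knockdown). Replicate 3 of the labelled knockdown group was within the wild-type range, so the groups overlapped. The log2 difference was -0.34 (SE 0.21, limma adjusted p = 0.442), or -0.11 with replicate 1 of that group left out. With the cardiomyocyte markers as a covariate it was -0.03, and with labelled knockdown replicate 3 left out -0.54. Tpm2 lies on chromosome 4 (43514711 to 43523765, minus strand).

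The calponins bind actin and damp myosin activity, Cnn1 in differentiated smooth muscle and Cnn2 more broadly. Cnn1 read 42.0, 42.3 and 71.9 with wild type and 26.4, 47.2 and 40.9 with labelled knockdown. Wild-type replicate 3 stood well above the other 5 libraries, and the groups overlapped. Its log2 difference was -0.43 (SE 0.27, limma adjusted p = 0.453), or -0.18 without wild-type replicate 3 and -0.19 without labelled knockdown replicate 1. Cnn2 measured 269, 248 and 276 (wild type), compared with 184, 251 and 254 for labelled knockdown. Only replicate 1 of the labelled knockdown group lay under the wild-type range of Cnn2. Its log2 difference was -0.21 (SE 0.15, limma adjusted p = 0.486), and -0.06 without that library. Cnn1 lies on chromosome 9 (22099216 to 22109630, plus strand) and Cnn2 on chromosome 10 (79988584 to 79996062, plus strand). Their longest open reading frames share 63.5% of their bases.

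Tagln encodes transgelin, an actin-bundling protein that is among the abundant proteins of smooth muscle, yet it had the lowest level of the 10 genes. It was at 7.83, 5.61 and 8.22 (wild type) against 3.64, 5.77 and 4.99 (labelled knockdown). These values correspond to between 3.13 and 9.18 rounding steps, so a single step is a sizeable part of each. The groups overlapped, since replicate 2 of the labelled knockdown group was above wild-type replicate 2. The log2 difference was -0.51 (SE 0.20, 95% interval -0.97 to -0.04, limma adjusted p = 0.317), and -0.32 with 5 instead of 1 added before taking logs. The unadjusted limma p of 0.0356 became 0.0995 with labelled knockdown replicate 1 left out and 0.149 with the cardiomyocyte covariate. Tagln lies on chromosome 9 (45929619 to 45936058, minus strand), where the annotation has the protein-coding gene Pcsk7 and the antisense gene Gm48529 overlapping it on the other strand. Pcsk7 was at 14.4 to 18.96. No source used here tells whether counting used strand, and the part of the overlap in the low Tagln value was not tested. The paralog Tagln2, looked up with its values known, was at 587 to 740.5, and the longest open reading frames of the pair share 69.1% of their bases.

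Fap encodes fibroblast activation protein, a cell-surface peptidase of activated fibroblasts. It read 29.3, 27.3 and 30.8 with wild type and 20.04, 26.98 and 24.9 with labelled knockdown. The groups did not overlap, but wild-type replicate 2 and replicate 2 of the labelled knockdown group were less than 1 step apart. The log2 difference was -0.28 (SE 0.13, 95% interval -0.58 to 0.02, limma adjusted p = 0.351), or -0.16 with replicate 1 of the labelled knockdown group left out. Fap lies on chromosome 2 (62500943 to 62574075, minus strand).

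Meox1 encodes a homeobox transcription factor that drives the activated state of cardiac fibroblasts. It measured 122, 129 and 139 (wild type), compared with 230.0, 169 and 188 for labelled knockdown. Every library labelled knockdown was above every wild-type library, and replicate 1, the lowest for 8 of the other members, was the highest here. The means were 130.3 ± 8.74 and 195 ± 31.5 (SD, n = 3), a log2 difference of 0.57 (SE 0.13, 95% interval 0.26 to 0.89). It did not pass the test (limma unadjusted p = 0.00357, adjusted p = 0.296), and the adjusted p ran from 0.167 to 0.646 over 18 alternatives. The difference was 0.45 with replicate 1 of the labelled knockdown group left out and 0.44 with the cardiomyocyte markers as a covariate. Meox1 lies on chromosome 11 (101877510 to 101894374, minus strand) and overlaps the antisense gene Gm11551, which was at 0.913 to 3.99.

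**Figure D2:**
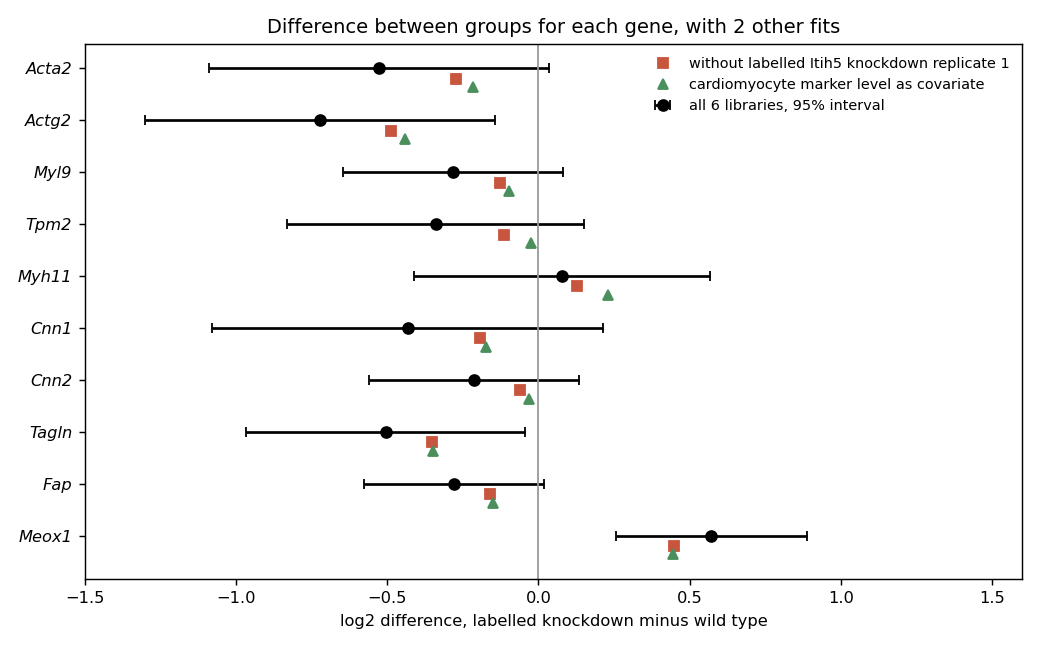
Log2 difference, labelled knockdown minus wild type, for each gene: black points are the fit to all 6 libraries with its 95% interval, red squares the fit that leaves out replicate 1 of the labelled knockdown group, and green triangles the fit with the cardiomyocyte marker level as a covariate. For the 8 genes with a lower mean and for Meox1 both other fits lie nearer to 0 (Acta2 moves from -0.53 to -0.27 and -0.21, and Meox1 from 0.57 to 0.45 and 0.44).

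By level, averaged over the 6 libraries on the length-corrected scale, the order was Acta2 (1093), Myl9 (455), Cnn2 (247), Tpm2 (237), Meox1 (163), Actg2 (79.1), Cnn1 (45.1), Myh11 (33.3), Fap (26.6) and Tagln (6.01). Neighbours in this order changed places in at least 1 library for Cnn2 and Tpm2, Tpm2 and Meox1, Cnn1 and Myh11, and Myh11 and Fap. The other neighbours kept this order in every library. Wild-type libraries varied least for Myl9 and Cnn2 (coefficients of variation 5.56% and 5.57%) and most for Cnn1 (33.0%) and Actg2 (26.1%). In the labelled knockdown group the coefficients of variation ran from 14.9% for Fap to 28.7% for Tpm2.

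Cnn2, Myl9 and Fap had nearly the same profile across libraries. The root mean square distance between 2 genes' log2 profiles, each centred on its own mean, was 0.04 for Cnn2 and Myl9 and 0.05 for Myl9 and Fap. It was 0.14 for Acta2 and Actg2, 0.46 for Acta2 and Myh11, and 0.67 for Acta2 and Meox1. As a percentage of the wild-type mean, replicate 1 of the labelled knockdown group was at 42.3 for Actg2, 48.5 for Acta2, 57.6 for Tpm2, 66.2 for Myl9 and 69.7 for Cnn2. Replicate 3 of that group was at 84.5 for Acta2 but at 104 for Tpm2 and 140 for Myh11.

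Marker lists of other cell types also stood apart in replicate 1 of the labelled knockdown group. The 14 macrophage markers summed to 4317 there, against 7420 to 8583 in replicates 3 and 2 and 9170 to 12167 in wild type. The 20 other scar myofibroblast genes summed to 16260 there, against 21999.9 to 26304 in replicates 3 and 2 and 23510 to 26884 in wild type. Pericyte markers, 12 genes of the cells that wrap capillaries and also express contractile genes, summed to 1646 there, to 1128 and 1383 in replicates 2 and 3, and to 1185 to 1299 in wild type. No gene of these 3 lists was at 0 in any library. The part of these components in the values of the contractile genes was not tested beyond the covariate fit. Under that fit the median log2 difference of the 10 genes was -0.12, and with that library left out it was -0.14, with 8 of 10 lower in both.

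**Figure D3:**
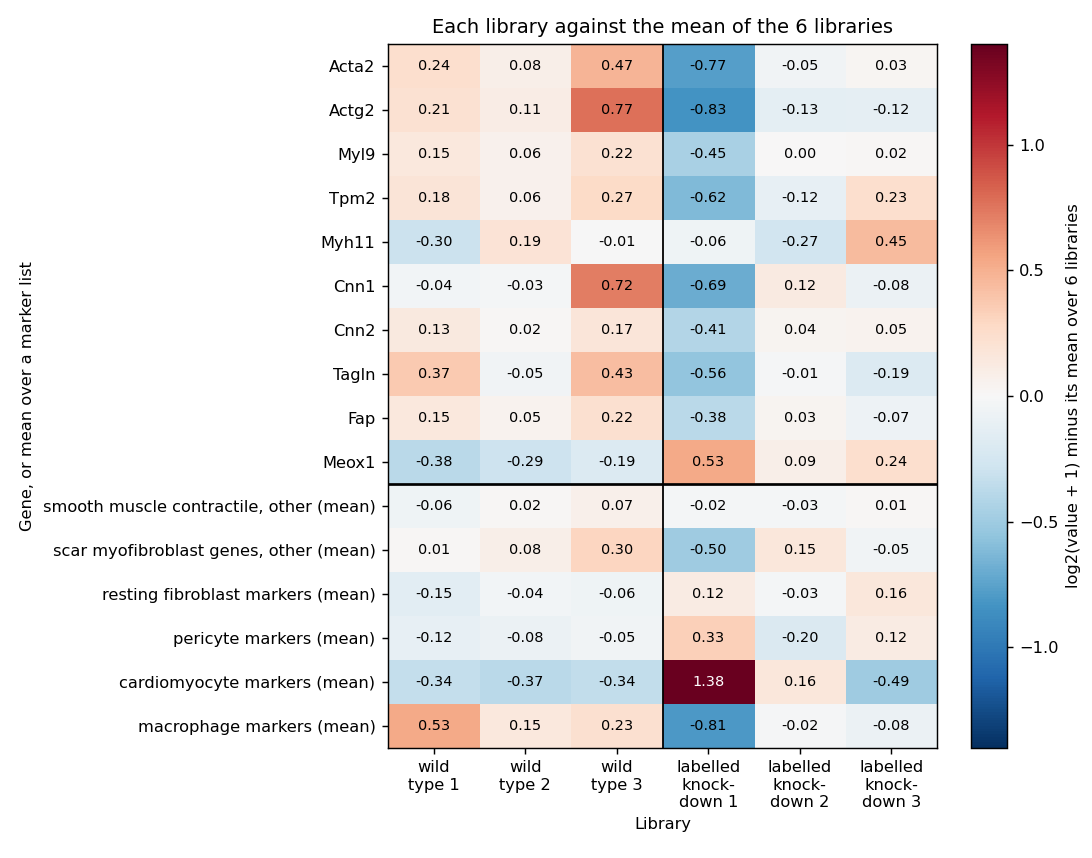
Log2(value + 1) in each library minus its mean over the 6 libraries, for the 10 genes (top) and as the mean over 6 marker lists (bottom), with blue below and red above the mean. Replicate 1 of the labelled knockdown group is at -0.77 for Acta2, -0.81 for macrophage markers and 1.38 for cardiomyocyte markers.

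A ratio between 2 genes of the same library does not depend on a scaling factor of that library, apart from the 1 added before taking logs. The adjustment between libraries need not be such a factor, since values near 1 step differed between genes of the same library. A part of it that differs between genes does not cancel in a ratio, and its size for these pairs was not tested. The log2 ratio of Meox1 to Acta2 was at -3.34, -3.10 and -3.39 (wild type) against -1.43, -2.59 and -2.52 (labelled knockdown). The groups did not overlap, and the difference of 1.10 between their means was 0.72 with labelled knockdown replicate 1 left out. The exact two-sided permutation p was 0.1, the smallest that 3 against 3 libraries allow, and 0.4 when adjusted over the 4 ratios compared. The log2 ratio of Acta2 to Myh11, which sets an actin shared with myofibroblasts against a smooth muscle myosin, read 5.52, 4.86 and 5.46 with wild type and 4.26, 5.20 and 4.56 with labelled knockdown. The groups overlapped (difference -0.60, or -0.40 with that library left out, exact permutation p = 0.2, adjusted p = 0.4). For Fap to Acta2 the difference was 0.25 (exact permutation p = 0.3, adjusted p = 0.4), and 0.11 with replicate 1 of the labelled knockdown group left out. For Cnn1 to Cnn2 it was -0.22 (exact permutation p = 0.6), and 0.0014 without wild-type replicate 3.

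**Figure D4:**
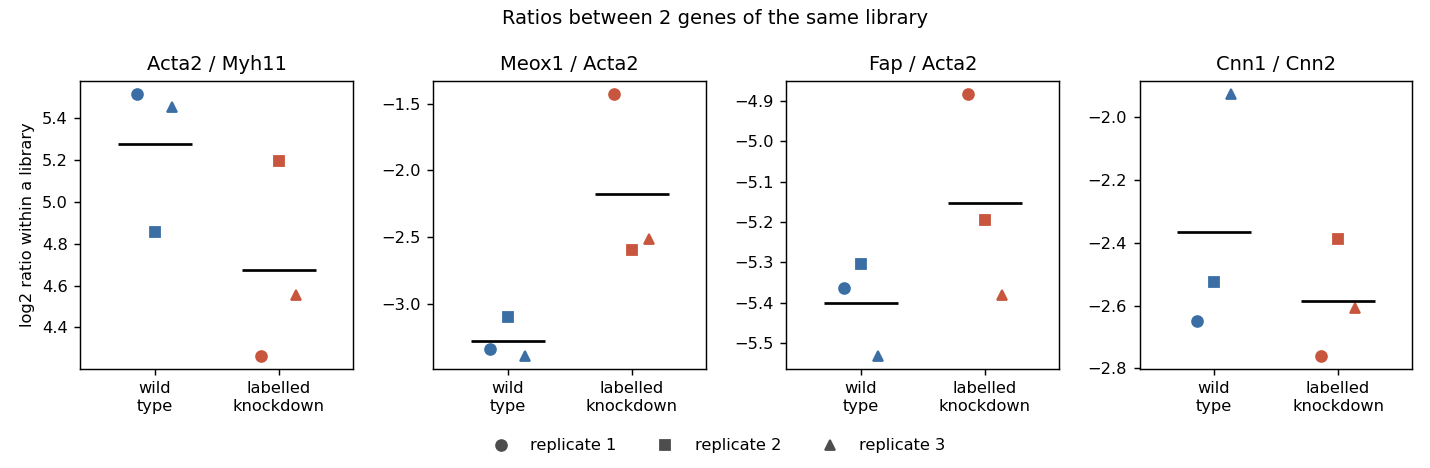
Log2 ratio between 2 genes of the same library for 4 pairs, in the 3 wild-type and 3 labelled knockdown libraries (shapes are replicate numbers, lines are group means; the axes differ and do not start at 0). The 2 groups are separate only for Meox1 to Acta2, where replicate 1 of the labelled knockdown group is at -1.43.

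Of 22 other smooth muscle contractile genes, 12 had a lower and 10 a higher mean (median log2 difference -0.002), which became 16 and 6 (median -0.14) when every library was rescaled to 1 common total. By limma 0 passed. At an unadjusted p under 0.05 there was 1 in each direction. Csrp1, a LIM protein gene of smooth muscle, was at 367, 317 and 415 (wild type) against 227, 247 and 290.4 (labelled knockdown), without overlap and with a log2 difference of -0.52 (SE 0.14). Vcl, the vinculin gene of focal adhesions, had a log2 difference of -0.56, with wild-type replicate 3 at 32.0, the other 5 libraries between 13.4 and 17.0, and no overlap. Ppp1r12a, the targeting subunit of myosin phosphatase, was at 0.24 and did not overlap either. In the whole list of 22, 3 lower and 2 higher genes were without overlap. Over all genes tested, 9.88% were lower and 12.6% higher without overlap. At an unadjusted p under 0.05, 6.55% were lower and 8.29% higher. These shares also stand beside the counts of the lists below.

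Of 16 tested regulators of the contractile programme (SRF and its coactivators among them), 13 had a higher and 3 a lower mean (median log2 difference 0.11), which became 7 and 9 (median -0.03) when every library was rescaled to 1 common total. The median was 0.07 with labelled knockdown replicate 1 left out and 0.06 with wild-type replicate 1 left out. By limma 0 passed, and 1 was higher at an unadjusted p under 0.05. Klf4, which encodes a repressor of smooth muscle genes, read 34.1, 34.7 and 33.99 with wild type and 67.5, 36.5 and 48.9 with labelled knockdown, again highest in replicate 1. Rhoa, the small GTPase upstream of actin assembly, had a log2 difference of -0.19 without overlap, and Fhl1 one of 0.22 with overlap. In the list of 16, 1 lower and 3 higher genes were without overlap.

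TGF-beta pathway genes had a lower mean for 15 of 20 (median log2 difference -0.14). The count was 12 of 20 (median -0.06) with labelled knockdown replicate 1 left out, and 18 of 20 (median -0.28) with every library rescaled to 1 common total. By limma 0 passed, and 1, Smad7, was higher at an unadjusted p under 0.05. Smad7, the inhibitory Smad, measured 17.6, 20.6 and 18.8 (wild type), compared with 23.2, 25.1 and 23.95 for labelled knockdown (log2 difference 0.33, SE 0.10). Its groups did not overlap, and in the list of 20, 2 lower genes and 1 higher gene were without overlap. Smad2, a receptor-activated Smad, had a log2 difference of -0.20 with overlap.

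Of the 20 other scar myofibroblast genes, 18 had a lower mean (median log2 difference -0.34). By limma 0 passed, 0 reached an unadjusted p under 0.05, and 0 were separate between the groups. The smallest p-values belonged to the matrix gene Thbs2 (log2 difference -0.63), to Adam12 (-0.65) and to Cdh11, the fibroblast cadherin (-0.50). With replicate 1 of the labelled knockdown group left out, 14 of 20 were lower and the median was -0.08, and with wild-type replicate 3 left out 16 of 20 and -0.19. Among 15 non-muscle and striated relatives of the contractile genes, 9 had a lower mean (median log2 difference -0.08), or 7 with labelled knockdown replicate 1 left out. By limma 0 passed, and 2, Tpm3 and Actg1, were lower at an unadjusted p under 0.05. Tpm3, another tropomyosin gene, was at -0.50 and the cytoplasmic actin gene Actg1 at -0.46, both without overlap, and Tagln3 (0.48) had at most about 2 rounding steps in any library. Of these 15 relatives, 3 lower and 0 higher were without overlap.

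The genes most like Acta2 across the 6 libraries, among 5946 others with a mean of at least 20, were Mmp14, Creb3l1, Htra1, Aebp1 and Ccl12, at a root mean square distance of 0.05 to 0.08 (median of all candidates 0.38). Mmp14, a membrane-bound matrix metalloproteinase gene, was at 370.2, 313 and 425 (wild type) against 179.99, 284 and 290.4 (labelled knockdown). The most like Meox1 were Mterf3, Adcy6, Phf20l1, Arhgap29 and Gpcpd1, at 0.08 to 0.12 (median of all candidates 0.37). Mterf3 read 23.4, 28.1 and 25.0 with wild type and 44.8, 34.7 and 36.9 with labelled knockdown. These genes were picked for their likeness out of many candidates, so their likeness is a description.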

How the data were processed

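RNA from 6 pieces of infarcted mouse myocardium, 3 per group by the labels, was sequenced after poly(A) selection, per the labels' protocols. Kits of 2 makers are named there, not matched to libraries. The submitters' processing notes give mm10 as the build. No aligner, quantifier or annotation is named in the sources used here.

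The table the authors deposited has 16205 rows with a score per library, named TPM in the file but adjusted. A test planned for TPM was kept. Of rows sharing a symbol, the highest was kept (6 left out); 8 symbols had become dates. Values were tested as log2(value + 1), which understates changes of low genes, for 14025 genes with a mean of at least 1, with a trended limma fit (limma 3.58.1, R 4.3.3) and p-values adjusted by Benjamini-Hochberg (threshold 0.05). The fit was tested on simulated data. Coordinates come from GENCODE M21, promoter sequences from RefSeq (GRCm38.p6).

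The 10 members and the other lists were chosen with earlier results of these data known. The named genes are the members, Itih5, the 3 tested genes of each list with the smallest p, and the 5 genes most like Acta2 and Meox1. One gene named by this rule is not reported here. Other genes named were chosen with values seen. The 6 columns each matched 1 sample. Alternatives changed the pseudocount, filter, scaling, trend, weights, block, covariate and libraries used.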

Additional observations from a re-analysis of the deposited data

How the results depend on the processing

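No member passed the adjusted threshold under any of 18 alternatives, and no gene of the table was called higher. Leaving out single libraries gave between 0 and 13 genes called lower (2 when wild-type replicate 2 was left out, 13 when labelled knockdown replicate 3 was), none of them a member. The median log2 difference of the 10 members ran from -0.45 to -0.12 over the other 12 settings and from -0.43 to -0.14 with single libraries left out. Rescaling each library to the same total moved the median of all genes to -0.13 and that of the members to -0.45, turned Myh11 to -0.0619, and gave 457 genes higher and 1395 lower at an unadjusted p under 0.05 in place of 1162 and 919. Myh11 ran from -0.13 to 0.23 with single libraries left out and was negative with either wild-type replicate 1 or labelled knockdown replicate 3 left out. The difference in the log2 ratio of Cnn1 to Cnn2 ran from -0.36 to 0.0014, the latter when wild-type replicate 3 was left out. The causes were not tested. Meox1 stayed between 0.43 and 0.67, and the other 8 members stayed negative, in all 18. Deviations of same-numbered libraries from their group means had correlations of 0.06, 0.06 and 0.14. Those of libraries with different numbers ran from -0.11 to 0.06. No source used here says whether the numbers pair libraries, and 3 libraries per group are too few to settle it. With the replicate block the median of the members was -0.31 and 0 genes were called, as without it, and the block changed no call at the adjusted threshold. It moved the unadjusted limma p of Tagln to 0.053 and that of Actg2 from 0.0211 to 0.00592. At an unadjusted p under 0.05, counts rose from 0 to 5 lower scar myofibroblast genes and from 1 to 6 higher cardiomyocyte markers. They also rose from 1 to 3 higher endothelial, from 1 to 4 lower mesothelial and from 0 to 5 lower adipocyte markers. Among the falls were lower macrophage markers, from 7 to 5, and lower non-muscle and striated relatives, from 2 to 1. Over all genes, 1039 were higher and 764 lower with the block, in place of 1162 and 919. Rounding steps near 1 limit Tagln, and the depth behind all values is unknown.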

Other observations

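Of 16 tested fibroblast transcription factors other than Meox1, 9 had a higher and 7 a lower mean (median log2 difference 0.01), which became 6 and 10 (median -0.13) when every library was rescaled to 1 common total. By limma 0 passed, and 0 reached an unadjusted p under 0.05. Egr3, an immediate early factor, measured 4.875, 3.71 and 5.34 (wild type), compared with 10.2, 5.76 and 5.99 for labelled knockdown, where the smallest gap between the groups was less than 1 rounding step. Tbx18 was at -0.27 and Zeb1 at 0.20, both with overlap. Resting fibroblast markers had a higher mean for 9 of 13 (median 0.14, or 7 of 13 and 0.0007 after that rescaling, and 7 of 13 and 0.06 with labelled knockdown replicate 3 left out), and Pi16 (log2 difference 0.77), Abca8a (0.73) and Col15a1 (0.20) did not overlap. Peptidases related to Fap had a lower mean for 4 of 5 (median -0.07), but for 2 of 5 with replicate 1 of the labelled knockdown group left out. Prep was at -0.23 without overlap, and Dpp9 (0.09) and Dpp7 (-0.20) overlapped.

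Pericyte markers had a higher mean for 10 of 12 (median 0.07), but for 5 of 12 (median -0.07) after rescaling to 1 common total, with Cox4i2 at 0.69, Vtn at 0.56 and Pdgfrb at -0.21. Endothelial markers were higher for 8 of 9 (median 0.44, or 7 of 9 and 0.18 with labelled knockdown replicate 1 left out), with Egfl7 at 0.72, Cldn5 at 0.84 and Emcn at 0.34. All 15 cardiomyocyte markers had a higher mean (median 0.68), but 11 of 15 (median 0.21) with that library left out and 15 of 15 (median 1.14) with replicate 3 left out, with Ttn at 0.97, Myh6 at 0.99 and Myl2 at 1.04. All 14 macrophage markers had a lower mean (median -0.57, or -0.29 with replicate 1 left out), with Mrc1 at -0.73, Adgre1 at -0.92 and Laptm5 at -0.74. Mesothelial markers had a lower mean for 7 of 8 (median -1.22), with Krt8 at -1.09, Upk1b at -1.22 and Krt18 at 0.33. Their median was -0.40 without labelled knockdown replicate 1 and -2.09 without replicate 3, in which they summed to 194, above every wild-type library (106 to 149.6). All 6 adipocyte markers had a lower mean (median -2.97), with Cfd at -4.43, Cidec at -2.89 and Adipoq at -3.05. They summed to 4.91 and 11.7 in labelled knockdown replicates 1 and 2 but to 1473 in replicate 3, above every wild-type library (488 to 1403). Without replicate 3 their median was -4.82, with 6 of 6 at an unadjusted p under 0.05, and without replicate 1 it was -1.97. In the fit without replicate 3, 1230 of all 13948 genes tested were lower at that threshold. By limma 0 genes of these lists passed. At an unadjusted p under 0.05, 7 macrophage and 1 mesothelial marker were lower, and 2 resting fibroblast, 1 pericyte, 1 endothelial and 1 cardiomyocyte marker were higher. Over all 14025 genes tested, 6.55% were lower and 8.29% higher at that threshold.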
